A study of Mus musculus with 6 samples.

Results

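The mitochondrial ribosomal proteins are the nuclear-encoded proteins of the ribosome inside mitochondria, and their mRNAs were taken here as the 75 genes, of 21059 genes measured in the whole series, whose name in the scanner files begins with Mrpl or Mrps followed by a digit. The genes were taken by name and by no measured value, and the probe of each gene by its mean signal over all 6 arrays. The set was picked with earlier results of these data known. Gene expression was measured in abdominal white adipose tissue (WAT) of female C57/BL6 mice at 30 wk of age, on 6 single-colour Agilent arrays. The 3 WT arrays held RNA of wildtype mice, and the 3 hNAG-1 arrays held RNA of mice that carry a transgene for human NAG-1 (NSAID-activated gene 1, also called GDF15), a secreted protein of the TGF-β family. Each array held RNA pooled from 2 mice, so that 6 mice of each genotype were used, the labels list no treatment, and the spread between arrays is that between pools. The promoter of the transgene is not given in the sources used here, and the hNAG-1 mice came from a single transgenic line.

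The level of a gene is the log2 processed signal (spot brightness after background subtraction by the scanner software) of its brightest probe minus the 75th percentile of the array, a value between 912.6 and 969.6 in WT and between 628.8 and 858.2 in hNAG-1 mice. Between 95.2% and 99.2% of the spots of these genes were well above background on each array, against 71.2% to 82.0% of all spots, and none was saturated. Pearson correlations between arrays over all genes were 0.965 to 0.988. The arrays fell into 2 sets by the scan date recorded with them, and each set is taken here as a slide. On that basis 1 slide carried hNAG-1 replicate 1 with all 3 WT arrays, and the other carried only hNAG-1 replicates 2 and 3. All 11 adipocyte markers examined were well above background on every array, with Adipoq, the adiponectin gene, at 8.05 to 8.29 in WT and 8.13 to 8.36 in hNAG-1 mice. WT replicate 2 stood apart in other markers: Ucp1, the uncoupling protein of brown fat, was at 5.25 there and at 1.63 to 3.62 on the other arrays, and Cpa1, a digestive enzyme of the exocrine pancreas, was at 2.42 there and at -6.07 to -3.88 elsewhere.

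The mitochondrial ribosome translates the few mRNAs of mitochondrial DNA, all of which encode subunits of the respiratory chain and ATP synthase. Its proteins are made in the cytosol and imported, and many have homologs in bacterial ribosomes while others exist only in mitochondria. The large subunit joins amino acids into the protein, and the small subunit reads the mRNA. In fat, mitochondria also provide citrate for fatty acid synthesis and burn fatty acids.

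Most mitochondrial ribosomal protein mRNAs were slightly higher in hNAG-1 mice than in WT mice, and none passed the test after correction over all genes. The log2 difference (hNAG-1 minus WT) was above 0 in 72 of the 75 genes, against 59.0% of all genes measured. Its median was 0.25, a ratio of 1.19, against 0.063 for all genes, and 67 of the 75 genes lay above that median of all genes. At an adjusted p under 0.05 (limma, Benjamini-Hochberg over all genes) 0 of the 75 were called in either direction, and 0% of all genes were called. The smallest adjusted p among them was 0.194, and the smallest over all genes was 0.167.

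At an unadjusted p under 0.05 in limma, 25 of the 75 were higher in hNAG-1 mice, against 8.45% of all genes. On the same criterion 0 were lower, against 4.08% of all genes. In 53 of the 75 every hNAG-1 array lay above every WT array, against 13.7% of all genes, and in 0 did every hNAG-1 array lie below every WT array, against 6.57% of all genes. The individual differences were small, from -0.084 to 0.62 on the log2 scale, with a median standard error of 0.128 (0.178 over all genes). For 41 genes the difference was more than 2 standard errors from 0, and for 12 it was within 1 standard error. These are bright probes: with all genes split into 4 equal groups by mean level, 62 of the 75 were in the highest group, where 13.2% of genes were higher at an unadjusted p under 0.05, 64.2% were above 0 and the median difference was 0.081.

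**Figure D1:**
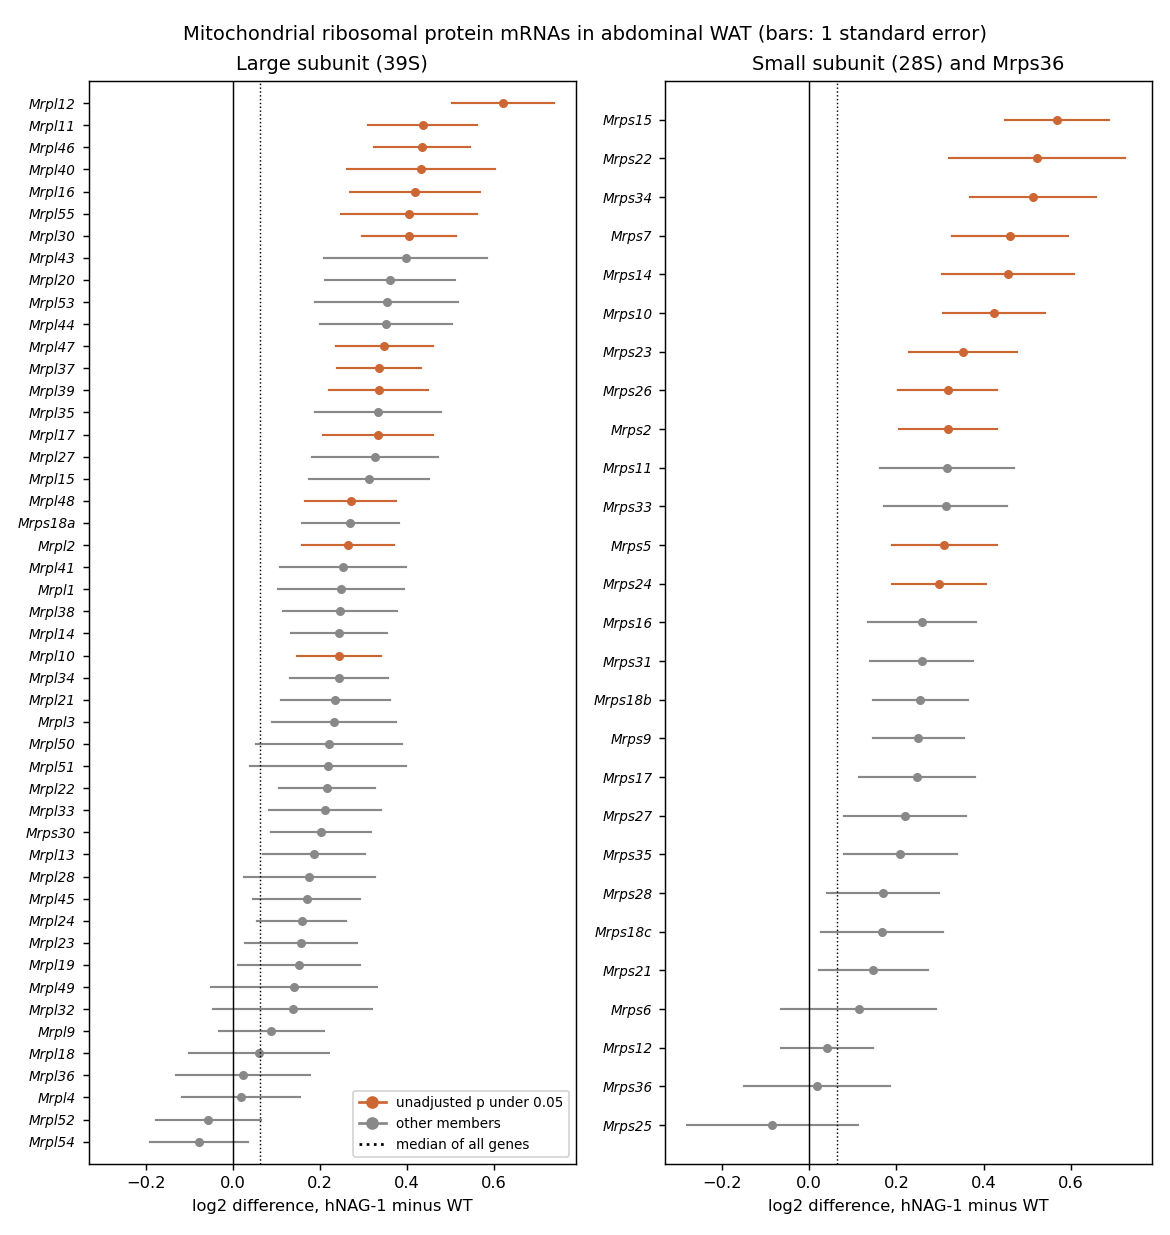
Log2 difference between hNAG-1 and WT mice for each of the 75 genes, with the large subunit on the left and the small subunit and Mrps36 on the right. Points are differences of means of 3 arrays each, bars are 1 standard error from limma, orange marks the 25 genes at an unadjusted p under 0.05, and the dotted line is the median of all genes (0.063); the points run from -0.084 (Mrps25) to 0.62 (Mrpl12).

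Mrpl12 had the highest difference. Its protein is part of the stalk of the large subunit, where translation factors dock, and also binds the mitochondrial RNA polymerase. Its probe is at chr11:120597471-120597530 in the coordinates of the array design, which uses mouse build mm7. The level of Mrpl12 was 4.07, 4.004 and 4.24 in the WT pools and 4.71, 4.81 and 4.65 in the hNAG-1 pools. The lowest hNAG-1 array was thus above the highest WT array. The difference was 0.62 on the log2 scale (standard error 0.117, a ratio of 1.54, adjusted p = 0.194 in limma).

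Mrps15, a small-subunit protein with a bacterial homolog, had the next smallest p. Its level was 3.16, 2.97 and 3.08 in WT and 3.71, 3.704 and 3.499 in hNAG-1 mice, with no overlap. The difference was 0.57 (standard error 0.12, a ratio of 1.48, adjusted p = 0.221). Mrps34, a small-subunit protein found only in mitochondria whose loss in humans causes Leigh syndrome, was at 4.05, 4.01 and 4.36 in WT and at 4.58, 4.80 and 4.58 in hNAG-1 mice. The WT array nearest to the hNAG-1 arrays was replicate 3, and the difference for Mrps34 was 0.51 (standard error 0.145). Mrps22, also a protein of the small subunit without a bacterial homolog, had a difference of nearly the same size, 0.52, but a larger standard error of 0.202. Its level was 1.02, 0.74 and 1.41 in WT and 1.41, 1.73 and 1.60 in hNAG-1 mice, so that WT replicate 3 and hNAG-1 replicate 1 all but met.

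The other genes among the 10 with the smallest p had differences of 0.34 to 0.46, and in all 10 the arrays of the genotypes did not overlap. Mrps7, which binds the ribosomal RNA of the small subunit, had a difference of 0.46, and Mrps10, another small-subunit protein, one of 0.42. In the large subunit, Mrpl11, at the base of the stalk that carries Mrpl12, was higher by 0.44, Mrpl46 by 0.44, Mrpl30 by 0.40, Mrpl47 by 0.35 and Mrpl37 by 0.34. Mrpl37 had the closest replicates of the 10, with 0.87, 0.93 and 0.93 in WT and 1.26, 1.27 and 1.21 in hNAG-1 mice. Its standard error was 0.0974, and its adjusted p in limma was 0.29.

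**Figure D2:**
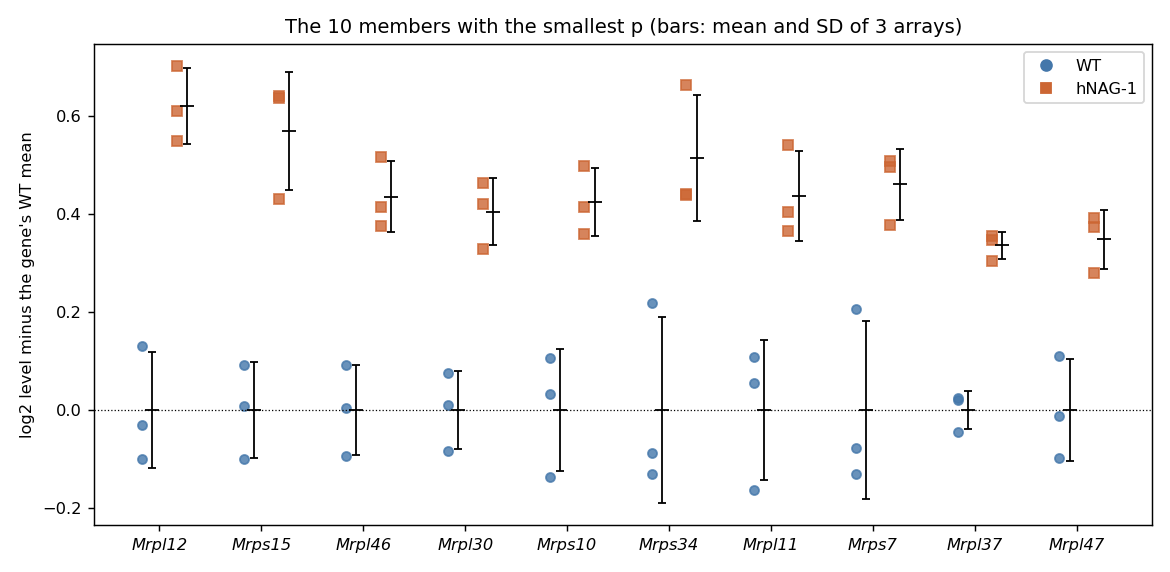
The 10 genes with the smallest p among those higher in hNAG-1 mice. Each point is an array (a pool of 2 mice), drawn as its log2 level minus the mean of the WT arrays for that gene, and the bars give the mean and SD of 3 arrays; in each gene the 3 hNAG-1 arrays lie above the 3 WT arrays.

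The promoters of 6 of these genes are printed from 250 bases before to 50 bases after the annotated start, from RefSeq on GRCm38.p6, 5′ to 3′ on the strand of the gene. Mrpl12 and Mrps15 are shown for the highest differences of each subunit, Mrpl46 and Mrps11 because they are neighbours that start back to back, and Mrpl37 and Mrpl39 as examples with a match to a motif of the factors YY1 and NRF1. Capitals mark matches on either strand to GCATGCGC (the core of the NRF1 site), CCGGAAG (the ETS core, which GABP binds) and AANATGGCG (the YY1 site).
Mrpl12, chr11:120484387-120484686, plus strand: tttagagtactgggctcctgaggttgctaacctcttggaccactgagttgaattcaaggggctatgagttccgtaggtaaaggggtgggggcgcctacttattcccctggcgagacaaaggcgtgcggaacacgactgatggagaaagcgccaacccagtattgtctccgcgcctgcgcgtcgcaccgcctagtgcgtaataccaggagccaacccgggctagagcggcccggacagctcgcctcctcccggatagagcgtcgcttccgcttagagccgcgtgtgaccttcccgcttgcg
Mrps15, chr4:126046678-126046977, plus strand: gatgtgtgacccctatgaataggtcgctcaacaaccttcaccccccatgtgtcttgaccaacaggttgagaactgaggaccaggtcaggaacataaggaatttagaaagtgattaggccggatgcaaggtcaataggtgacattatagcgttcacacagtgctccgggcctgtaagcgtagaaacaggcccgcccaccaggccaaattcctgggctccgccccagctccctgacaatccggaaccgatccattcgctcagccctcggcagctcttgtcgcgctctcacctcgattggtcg
Mrpl46, chr7:78783040-78783339, minus strand: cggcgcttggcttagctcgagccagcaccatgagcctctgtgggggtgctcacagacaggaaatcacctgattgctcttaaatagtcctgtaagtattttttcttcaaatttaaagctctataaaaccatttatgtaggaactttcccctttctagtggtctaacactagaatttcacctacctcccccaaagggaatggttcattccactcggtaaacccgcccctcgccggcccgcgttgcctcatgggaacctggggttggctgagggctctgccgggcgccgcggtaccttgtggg
Mrps11, chr7:78782881-78783180, plus strand: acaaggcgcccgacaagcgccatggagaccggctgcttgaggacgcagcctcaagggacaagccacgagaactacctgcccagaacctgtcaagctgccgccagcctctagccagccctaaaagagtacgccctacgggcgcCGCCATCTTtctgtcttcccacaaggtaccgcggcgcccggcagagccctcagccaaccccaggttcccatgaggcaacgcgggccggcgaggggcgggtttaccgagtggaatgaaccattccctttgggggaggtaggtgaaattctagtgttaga
Mrpl37, chr4:107066817-107067116, minus strand: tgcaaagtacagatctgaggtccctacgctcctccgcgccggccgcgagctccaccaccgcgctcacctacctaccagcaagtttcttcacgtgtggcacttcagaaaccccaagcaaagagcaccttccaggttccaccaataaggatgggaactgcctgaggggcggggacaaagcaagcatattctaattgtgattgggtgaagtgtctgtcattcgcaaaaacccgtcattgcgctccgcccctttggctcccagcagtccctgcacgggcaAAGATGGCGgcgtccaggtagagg
Mrpl39, chr16:84735195-84735494, minus strand: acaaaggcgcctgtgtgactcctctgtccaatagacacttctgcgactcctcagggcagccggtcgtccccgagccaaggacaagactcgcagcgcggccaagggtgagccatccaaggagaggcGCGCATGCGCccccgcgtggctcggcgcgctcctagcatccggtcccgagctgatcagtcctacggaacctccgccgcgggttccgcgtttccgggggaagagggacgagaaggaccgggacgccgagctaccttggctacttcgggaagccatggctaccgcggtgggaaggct

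Of the 75 genes 66 had a promoter in the table. A match to GCATGCGC was found in 8 of them (12.1%), against 3.05% of all genes of the table and 4.91% of those measured on the arrays. The ETS core was found in 24 (36.4%, against 9.93% and 16.3%) and the YY1 site in 9 (13.6%, against 2.76% and 4.71%), while TATAAA was found in 5 (7.58%, against 15.7% and 11.3%). The ETS core and the YY1 site can share bases, and the NRF1 core overlaps its own reverse complement where it stands in a longer palindrome, as in the printed window of Mrpl39. Any of the first 3 motifs was present in 34 of the 66 genes. The median log2 difference between genotypes was 0.25 for these 34, 9 of which were higher at an unadjusted p under 0.05, and 0.29 for the 32 without a match, 15 of which were higher. On that criterion 8.45% of all genes measured were higher. The windows of Mrpl12 and Mrps15 held none of the 4 motifs. A match describes letters in a window and not a bound site. The windows of these genes had a median GC content of 58.5%, against 52.67% for all windows. The shares of matches were not adjusted for this.

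Many of these genes share their promoter region with a gene on the opposite strand. In 23 of the 66 (34.8%) the window overlapped that of another gene on the opposite strand, against 11.9% of all genes of the table and 16.1% of those measured. Mrpl46 and Mrps11 are the 1 pair in which both genes are mitochondrial ribosomal proteins. Their windows share 141 bases and their annotated starts are 42 bases apart. In WT mice Mrps11 was at 0.23, 0.0042 and 0.49, and in hNAG-1 mice at 0.52, 0.63 and 0.52. The difference was 0.32 (standard error 0.153) for Mrps11 and 0.44 (standard error 0.11) for Mrpl46, both without overlap between the genotypes. The other partners were 21 genes of varied function, of which 19 were measured. Their median difference was 0.15 and 16 were above 0, against 59.0% of all genes. The number higher at an unadjusted p under 0.05 was 1, against 8.45% of all genes. That gene was Psma2, which encodes a proteasome subunit and starts opposite Mrpl32 (difference 0.46 for Psma2 and 0.14 for Mrpl32). Mrps12 starts opposite Sars2, the mitochondrial seryl-tRNA synthetase, and the differences were 0.041 and 0.23. Mrpl40 starts opposite Hira, a histone chaperone, and was at 0.43 where Hira was at 0.00079. The 23 genes with such a partner had a median difference of 0.31 and 11 of them were higher at an unadjusted p under 0.05, while in the 43 without one the median was 0.25 and 13 were higher.

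The subunits of the ribosome had similar medians. Of 48 large-subunit genes 46 were above 0 and 14 were higher at an unadjusted p under 0.05, with a median difference of 0.25. Of 26 small-subunit genes 25 were above 0 and 11 were higher, with a median of 0.28. Proteins with bacterial homologs (46 genes, 16 higher, median 0.25) and those specific to mitochondria (26 genes, 9 higher, median 0.26) also lay close together. All 46 genes with bacterial homologs were above 0, and the 3 genes below 0 belonged to those specific to mitochondria. Over all genes 59.0% were above 0 and 8.45% were higher. No test of a difference between these groups of mitochondrial ribosomal proteins was made.

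Genes known from human disease or other roles lay within the same range. Mrps5, a small-subunit protein whose worm counterpart lengthens life when it is reduced, was at 1.95, 1.95 and 1.87 in WT and at 2.06, 2.30 and 2.34 in hNAG-1 mice, a difference of 0.31 (standard error 0.121). Mrps16, a small-subunit protein mutated in a respiratory chain deficiency, differed by 0.26, and its hNAG-1 replicate 1 (4.80) stood next to WT replicate 1 (4.80). Mrpl44, a large-subunit protein with a ribonuclease-like fold, differed by 0.35 and Mrpl3, another large-subunit protein, by 0.23, each with every hNAG-1 array above every WT array and an unadjusted p above 0.05. Mrpl41 and Mrps30, both in the large subunit and both also described as promoting cell death, differed by 0.25 and 0.20. The 3 related proteins Mrps18a, Mrps18b and Mrps18c, descended from one bacterial protein and placed at different sites of the ribosome, differed by 0.27, 0.25 and 0.17, and Mrps18b was at -0.015 with normexp background correction.

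A few genes showed no higher level. Mrps12, a protein of the decoding centre, was at 3.76, 3.62 and 3.75 in WT and 3.80, 3.71 and 3.74 in hNAG-1 mice. Its difference of 0.041 had a standard error of 0.105, and the arrays of the genotypes were mixed. Mrps36, which is now assigned to the α-ketoglutarate dehydrogenase complex rather than to the ribosome, differed by 0.018 (standard error 0.167). Mrps25, Mrpl54 and Mrpl52 were the genes below 0, at -0.084, -0.077 and -0.056, each within 1 standard error (0.196, 0.112 and 0.12). For Mrps25 the WT arrays alone ran from 1.55 to 2.15, and the hNAG-1 arrays at 1.63, 1.68 and 1.99 fell inside that range. The other kept probe of Mrps25, which is dimmer, had a difference of -0.31 (standard error 0.168).

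The level of the whole set differed among the WT arrays as well. With each gene set against its own WT mean, the median was 0.035, -0.13 and 0.087 on WT replicates 1 to 3 and 0.28, 0.25 and 0.26 on hNAG-1 replicates 1 to 3. WT replicate 2 was the lowest WT array in 62 of the 75 genes, and WT replicate 3 the highest in 45. The gap between the highest WT median (0.087) and the lowest hNAG-1 median (0.25) was smaller than the range of the WT medians. Without WT replicate 2, the array with the high Ucp1 and Cpa1 signals, the median difference of the 75 genes was 0.20, 67 were above 0 and 10 were higher at an unadjusted p under 0.05, against 6.39% of all genes. On the shared slide, hNAG-1 replicate 1 lay above the WT mean in 72 of the 75 genes with a median of 0.28, where the median of all genes was -0.029. With that 1 array against the 3 WT arrays 2 of the 75 were higher at an unadjusted p under 0.05, against 2.71% of all genes.

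**Figure D3:**
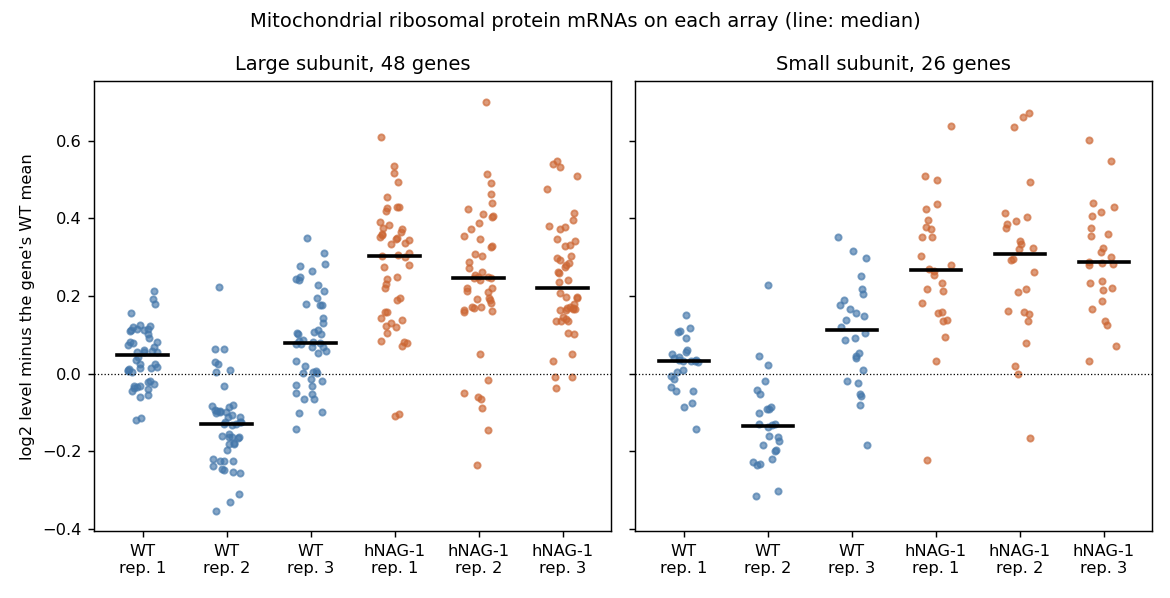
Every large-subunit gene (left, 48 genes) and small-subunit gene (right, 26 genes) on each of the 6 arrays, as the log2 level minus the mean of the WT arrays for that gene. Each point is a gene and each line the median on that array; the medians of WT replicate 2 lie at -0.13 and -0.14 and those of the hNAG-1 arrays between 0.22 and 0.31.

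Separate probes of a gene mostly gave the same sign. The 75 genes had 125 probes, of which 122 were kept, and 31 genes had several. Of the 47 dimmer probes of these genes 40 were above 0, 7 were higher at an unadjusted p under 0.05 and 0 lower, and their median difference was 0.24. Over all genes, each by its brightest probe, 59.0% were above 0, 8.45% higher and 4.08% lower. In the highest of the 4 groups by level 13.2% were higher. In 6 genes a dimmer probe went against the brightest one. For Mrpl52 the brightest probe was at -0.056 and the dimmer ones at -0.18 and 0.41, the last with a standard error of 0.604. The brightest probe of Mrpl35 was at 0.33 and its dimmer probes at 0.13 and -0.094. For Mrpl1, whose protein forms a mobile stalk of the large subunit, the values were 0.25, 0.18 and -0.028. Mrpl33 was at 0.21 with a dimmer probe at -0.018, Mrps30 at 0.20 with one at -0.11, and Mrps6 at 0.11 with one at -0.048. None of these negative values reached an unadjusted p under 0.05. Every one of the 75 genes had at least 1 probe that was kept.

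Other proteins of mitochondrial translation differed in the same direction. Mrpl42, a large-subunit protein that the files list under an older clone name, had a difference of 0.43 (standard error 0.122), with 3.51, 3.27 and 3.52 in WT and 3.88, 3.91 and 3.77 in hNAG-1 mice. For comparison, 59.0% of all genes were above 0 and 8.45% were higher at an unadjusted p under 0.05. In the highest of the 4 groups by level these shares were 64.2% and 13.2%. Of 7 proteins of the ribosome with other names, 7 were above 0 and 2 were higher at an unadjusted p under 0.05, with a median of 0.25. These were Ptcd3 (0.40), a small-subunit protein that binds RNA, and Mrpl58 (0.38), which releases stalled chains, and next came Mrpl57 (0.32). Of 17 translation factors and mRNA-binding factors 17 were above 0 and 3 were higher, with a median of 0.24. Those were Gfm2 (0.33), which splits the ribosome for reuse, Mtres1 (0.33), which rescues stalled ribosomes, and Tufm (0.28), which brings aminoacyl-tRNA to the ribosome.

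Of 27 genes for assembly of the ribosome and modification of its RNA 22 were above 0 and 8 were higher at an unadjusted p under 0.05, with a median of 0.17. Trub2, an RNA pseudouridine synthase, had the highest value of these lists. It was at 4.77, 4.51 and 5.26 in WT and 6.15, 6.03 and 5.81 in hNAG-1 mice, so that the genotypes did not overlap, and the difference was 1.15 (standard error 0.221, a ratio of 2.22, adjusted p = 0.197 in limma). Mrm3, a methyltransferase for the ribosomal RNA, was at 0.36 and Noa1, a GTPase of ribosome assembly, at 0.31. Of 20 aminoacyl-tRNA synthetases and related enzymes of mitochondria 18 were above 0 and 4 were higher, with a median of 0.22. The smallest p values were those of Rars2, the arginyl-tRNA synthetase, at 0.47, and of Qrsl1 and Gatb, subunits of the enzyme that makes glutaminyl-tRNA, at 0.38 and 0.36. In none of these lists was a gene lower at an unadjusted p under 0.05. On that criterion 8.45% of all genes were higher and 4.08% lower.

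The genes that copy and transcribe mitochondrial DNA and their regulators gave a mixed picture. Of 12 genes of mitochondrial DNA transcription and maintenance 11 were above 0 and 3 were higher at an unadjusted p under 0.05: Polg2, an accessory subunit of the DNA polymerase (0.33), Top1mt, a topoisomerase (0.40), and Polrmt, the RNA polymerase to which Mrpl12 binds (0.33). Tfam, which packs and activates mitochondrial DNA, was at 0.47 (standard error 0.219) with 2.51, 2.60 and 2.30 in WT and 2.53, 3.02 and 3.28 in hNAG-1 mice, so that hNAG-1 replicate 1 lay among the WT arrays. Of 10 regulators of nuclear genes for mitochondria 5 were above 0, 2 were higher and 1 was lower. The shares over all genes were 59.0% above 0, 8.45% higher and 4.08% lower. Ppargc1a, a coactivator of mitochondrial genes, was at -0.90, -0.77 and -1.25 in WT and -0.34, -0.22 and -0.40 in hNAG-1 mice, a difference of 0.65 (standard error 0.159). Esrra, a nuclear receptor that works with it, was also higher, by 0.59, and Ppargc1b, a related coactivator, had a difference of 0.52 (standard error 0.257). Pprc1, another coactivator of that family, was the lower one, at -0.46. The mRNAs of the factors whose motifs were searched had differences of -0.21 for Nrf1, -0.098 for Gabpa and 0.0080 for Yy1, none at an unadjusted p under 0.05.

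Set beside 2 related gene groups, the mitochondrial ribosomal proteins lay between the subunits of respiratory complex I and the proteins of the cytosolic ribosome. Of 36 complex I genes 36 were above 0 and 23 were higher at an unadjusted p under 0.05, with a median of 0.36. Of 79 cytosolic ribosomal protein genes 45 were above 0, 1 was higher and 0 lower, with a median of 0.013. Among all genes 59.0% were above 0, 8.45% higher and 4.08% lower. Relative to the WT mean, the array medians of the cytosolic ribosomal proteins were -0.11 to 0.14 in WT and -0.031 to 0.059 in hNAG-1 mice, and thus overlapped. Those of complex I were -0.089 to 0.079 and 0.31 to 0.39. Differences between these groups are given as medians and counts, and no test was made between groups of genes.

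**Figure D4:**
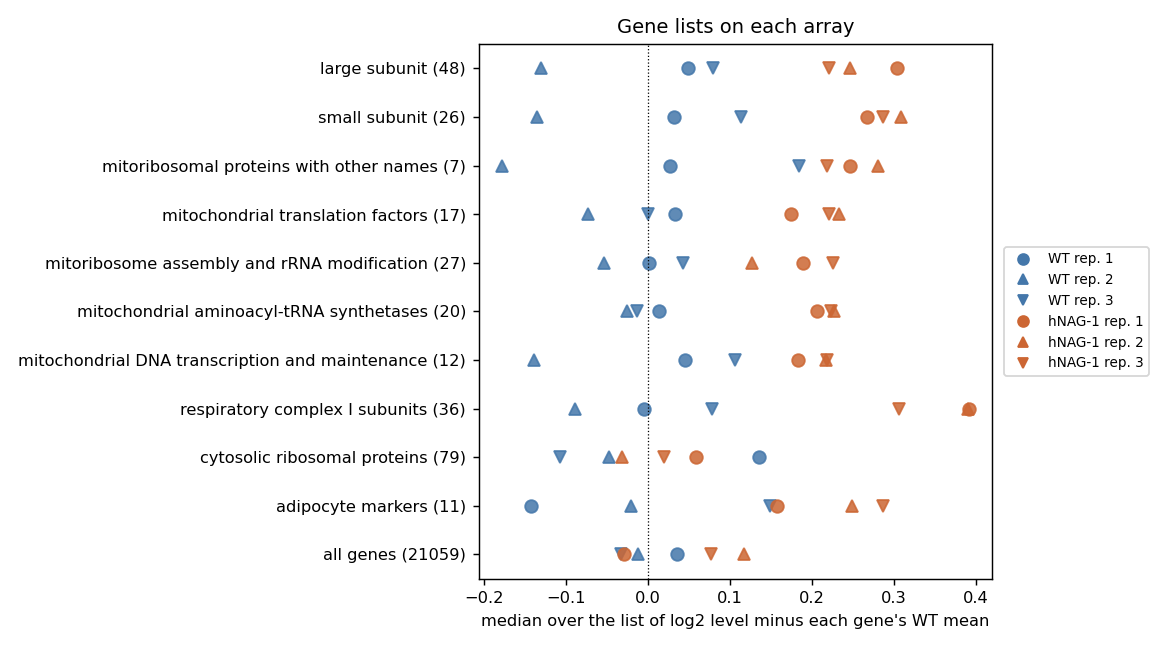
Median over each gene list, on each array, of the log2 level minus the mean of the WT arrays for that gene; blue marks WT and orange hNAG-1, each symbol is an array, and numbers in parentheses are genes measured. For both subunits of the mitochondrial ribosome the hNAG-1 arrays (0.22 to 0.31) lie to the right of the WT arrays (-0.14 to 0.11), and for cytosolic ribosomal proteins the genotypes mix.

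Markers of cell types also differed between the arrays. In bulk tissue, fewer cells of a type and less RNA per cell cannot be told apart. At an unadjusted p under 0.05, 8.45% of all genes were higher and 4.08% lower. The 11 adipocyte markers had a median difference of 0.26, with 10 above 0 and 2 higher at an unadjusted p under 0.05 (Retn at 0.64 and Fabp4 at 0.39). The 1 adipocyte marker below 0 was at -0.82, the largest change of the list. Every hNAG-1 array lay below every WT array for it, as for 6.57% of all genes. The array medians of the adipocyte markers were -0.14 to 0.15 in WT and 0.16 to 0.29 in hNAG-1 mice. The 10 fibroblast and matrix markers had a median of -0.43, with 9 below 0 and 4 lower, and array medians of -0.078 to 0.097 in WT and -0.65 to -0.31 in hNAG-1 mice. For 10 macrophage markers the median was -0.26, with 8 below 0 and 3 lower (-0.18 to 0.11 in WT and -0.32 to -0.13 in hNAG-1 mice). For 8 endothelial markers it was -0.16, with 6 below 0 and 1 lower (-0.18 to 0.22 and -0.28 to 0.0075). In both of these lists the array medians of the genotypes overlapped. The median of the adipocyte markers thus had the opposite sign to those of the fibroblast, macrophage and endothelial markers. Lymphocyte markers had the same sign as adipocyte markers, with a median of 0.47 and all 8 above 0. None of the 8 was higher at an unadjusted p under 0.05. The part of these cell types in the difference of the mitochondrial ribosomal proteins was not tested.

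Other markers varied more between arrays than between genotypes. The 7 brown fat markers had a median difference of -0.12, with array medians of -0.76 to 1.25 in WT and -0.11 to 0.25 in hNAG-1 mice. The 5 smooth muscle markers had a median of -1.66, 1 lower at an unadjusted p under 0.05, and array medians of -1.91 to 1.03 and -2.05 to -1.07. The 6 skeletal muscle markers were at a median of 0.19 (-1.29 to 1.28 in WT and -0.96 to 1.83 in hNAG-1 mice), the 6 mesothelial markers at -0.12 (-0.14 to 0.078 and -0.44 to 0.14), and the 8 lymphocyte markers at 0.47 (-0.14 to 0.30 and -0.011 to 1.07). The 4 of 7 exocrine pancreas markers that were measured had a median of -2.50, with array medians of -2.90 to 4.76 in WT and -2.89 to -2.00 in hNAG-1 mice. The highest pancreas median was that of WT replicate 2, the array on which the mitochondrial ribosomal proteins were lowest. The part of these cells in the result was not tested beyond the values without that array given above.

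The count of 25 differed between ways of processing, and the sign of the median did not. Over 18 alternatives the number of the 75 genes higher at an unadjusted p under 0.05 ran from 2 to 38, and the share of all genes higher moved as well. Robust variances with an intensity trend gave 38 (9.44% of all genes), and normexp background correction gave 2 (1.54%). The slide that carried WT arrays gave 2 (2.71%) and a fixed block for slide gave 6 (3.92%). In both of these slide settings the genotype difference rests on 1 hNAG-1 array, since the other slide held no WT array. The median difference of the 75 genes was 0.28 in both, against -0.029 for all genes. The reason for the low counts was not tested. The median difference of the 75 genes was above 0 and above that of all genes in all 18.

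**Figure D5:**
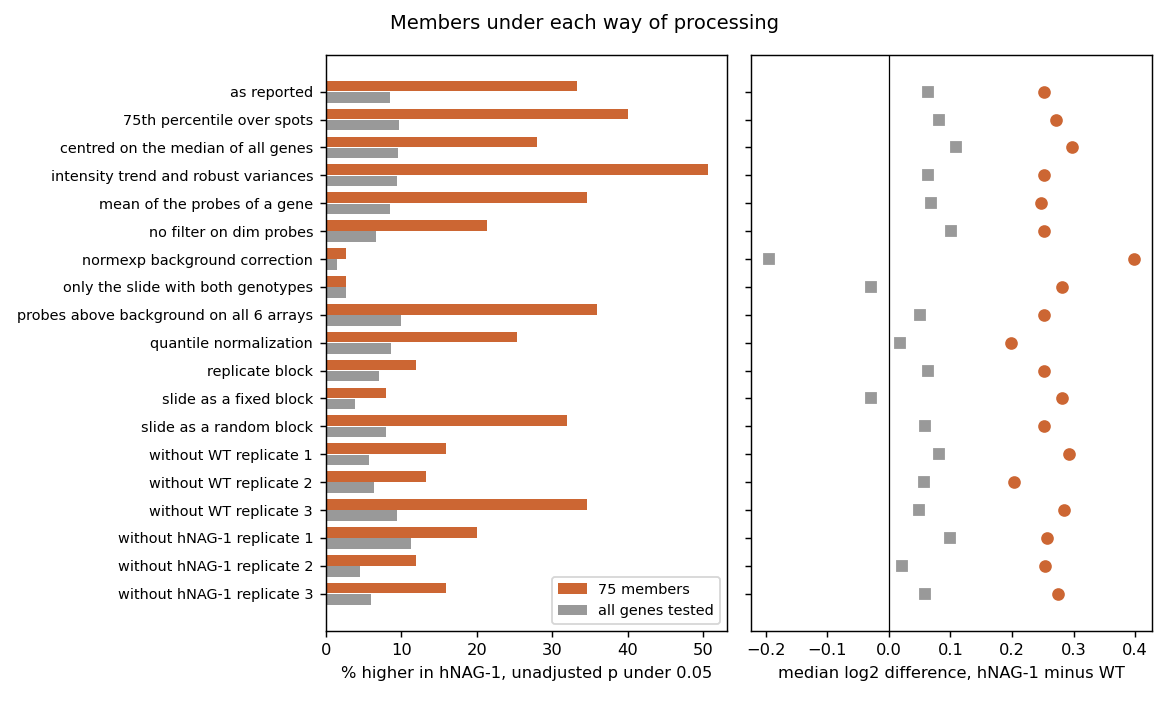
The 75 genes under each way of processing the arrays. The left panel gives the percentage higher in hNAG-1 mice at an unadjusted p under 0.05 (orange) beside that of all genes tested (grey), and the right panel the median log2 difference of both; the median of the 75 genes runs from 0.20 to 0.40 and lies above that of all genes in each.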

How the data were processed

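Total RNA of abdominal WAT, pooled from 2 mice per array, was labelled with Cy3. The authors deposited the scanner output of Agilent Feature Extraction 9.5 (version per the submitters' processing notes), whose processed signal is an intensity on a linear scale, background-subtracted within each array. The deposited value table held that intensity to within 1 part in 10000 for all 270108 values, so it carries no normalization between arrays. The methods of the study name another array type, and the files are Agilent's.

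After removal of control spots (1639 of 45018) and outlier spots, repeat spots were averaged by probe and log2 intensity was expressed relative to the 75th percentile of the array. A probe was kept if at least 3 of 6 arrays had it well above background, and a gene was its brightest kept probe. Other genes were named through RefSeq (22944 of 41174 probes by accession, 6664 by symbol, 3108 by synonym, 8458 by the name in the file). Genotypes were compared over all 21059 genes in limma 3.58.1 on R 4.3.3 (lmFit, then eBayes; two-sided p, adjusted by Benjamini-Hochberg), after a test on simulated data. The arrays hold separate pools, and having 3 per genotype limits the precision.

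The members and gene lists were chosen with earlier results of these data known. The text names the 10 genes with the smallest p above 0 and up to 5 below 0, genes with known roles, genes with probes of opposite sign, up to 3 genes of each other list of mitochondrial translation, and a few regulators; Mrpl42, Esrra, Pprc1, Yy1, the marker genes and the genes of the promoter comparison were named after their values were seen. Promoters came from RefSeq on GRCm38.p6. Alternatives were other scalings, quantile normalization, normexp (offset 50), other filters on dim probes, the mean of probes, a trended variance, slide and replicate number as blocks, and each array left out. Of the scalings, 2 (75th percentile over spots, and the median of all genes) were chosen after seeing the data.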

Additional observations from a re-analysis of the deposited data

How the results depend on the processing

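Under the 18 alternatives the count of the 75 genes at an adjusted p under 0.05 in limma stayed at 0, as did the count lower at an unadjusted p under 0.05, and 63 of the 75 were above 0 in every one. All 25 genes higher at an unadjusted p under 0.05 stayed above 0 in each. They were picked by their difference on these same arrays, so that outcome was likely beforehand. With normexp background correction 2 of the 25 were still higher on that criterion, beside 1.54% of all genes. The count of 25 was 38 with an intensity trend and robust variances (where 130 genes of the whole table and none of the 75 passed the adjusted threshold, with a smallest adjusted p of 0.0534 among the 75), 16 with no filter on dim probes, 2 with normexp background correction, 6 with slide as a fixed block and 2 on the slide that carried WT arrays. Beside these counts stand 9.44%, 6.68%, 1.54%, 3.92% and 2.71% of all genes. The last 2 settings both compare hNAG-1 replicate 1 alone with WT, and that lone array is assumed to vary like the others. Leaving out 1 array gave counts of 9 to 26, with 12 (5.74% of all genes) without WT replicate 1, 10 (6.39%) without WT replicate 2, 26 (9.41%) without WT replicate 3, 15 (11.3%) without hNAG-1 replicate 1, 9 (4.56%) without hNAG-1 replicate 2 and 12 (6.04%) without hNAG-1 replicate 3. Over these the median difference was 0.20 to 0.29 and the number above 0 was 67 to 72. With normexp the median was 0.40, where that of all genes was -0.19. With the replicate number as a block the count was 9, beside 7.08% of all genes. The deviations of same-numbered arrays correlated at 0.098, 0.51 and 0.095, and those of unlike-numbered arrays at -0.42 to 0.34. These values do not settle whether the numbers pair the samples, and the comparison as reported did not pair them. The cause of these shifts was not tested. Of 522 values of named genes 15 turned sign. Mrps18b, at 0.25 as reported, was at -0.015 with normexp. Mrpl54 was at 0.11, Mrpl52 at 0.13 and Mrps25 at 0.015 with normexp, Mrps12 at -0.039, Mrps36 at -0.020 and Mrps6 at -0.039 with quantile normalization, and Mrpl52 at 0.060 with the mean of its probes. With 1 array left out Mrpl52 ran from -0.12 to 0.023, Mrps25 from -0.24 to 0.065, Mrps12 from -0.0050 to 0.066 and Mrps36 from -0.059 to 0.16. Slide and genotype are confounded in part, since no WT array was on the second slide, and dim probes have less signal over background and so less precision.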
